A study of Drosophila melanogaster with 3 samples.

Results

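Isolated narrow Yki peaks are the peaks of S2 cells that are under 1000 bp wide and stand 10 kb or more, midpoint to midpoint, from the nearest listed peak on either side. They were picked from a deposited list by position and width alone. Of 3990 listed peaks, 900 (22.6%) qualified, all of them on the large arms (2L, 2R, 3L, 3R, X). They were compared with the 2514 other narrow peaks of the arms, which have a neighbour closer than 10 kb. Yorkie (Yki) was profiled by chromatin immunoprecipitation and sequencing (ChIP-seq) in S2 cells, an embryo-derived line of Drosophila melanogaster in long use, grown in Schneider's medium and fixed with formaldehyde. The 2 Yki libraries came from precipitation with an anti-Yki antibody, and 1 input library had none; the labels give no treatment, RNAi or transgene. The free-text descriptions go against this: they call the Yki libraries GAF ChIP of embryos and the input a Yki ChIP of embryos. Cell line and antibody therefore rest on the other label fields. With 1 list and 1 density track for all libraries together, no value has a replicate error.

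Yki is a transcriptional coactivator controlled by the Hippo pathway, the kinase cascade that restrains tissue growth. When the cascade is active, the kinase Warts phosphorylates Yki and keeps it out of the nucleus. Yki has no DNA-binding domain and reaches DNA through partners, of which the TEAD-family protein Scalloped is the best known; once there it recruits Mediator and chromatin-modifying complexes. An isolated peak is of interest because its density belongs to 1 place in the genome, with no listed neighbour to add to it. Positions are those of the dm3 build. Neither the genome sequence nor a gene annotation of that build was used here, so peaks are named by position, with no gene, promoter or motif assigned.

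The scale of the density could be read from lone tags in the track. Where a short bump began and ended at 0, its shape gave a centre height of 1 above 0 in the most frequent class (1156 of 3502 bumps) and a depth of 0.36 below 0 in the most frequent class there (893 of 1644). Both had the shape of a Gaussian with a standard deviation of 200 bp. Density is therefore given in tag heights, with 1 ChIP tag taken as 1 and 1 input tag as 0.36 below 0. Counting alone gives a height an SD no smaller than the square root of the height over the square root of 2. For a member of median height that bound is 9.59, before any contribution of the input. Total tags per library are unknown. List and track describe the same experiment, and the list chose the members, so differences between isolated and other narrow peaks are given as descriptions, with no test.

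The highest isolated peaks each stood as 1 spike far above the density of their flanks. On 2L the peak at 14490064 to 14491048 reached a height, the highest density sampled inside it, of 1549, and its flanks 2 to 5 kb from the edges averaged -2.41, while the lowest unlisted sample 1 to 10 kb from its edges was -209. Its nearest listed neighbours were 80.1 kb to the left and 198.8 kb to the right. On 3L the peak at 20942405 to 20943351 reached 1260.0, with neighbours 108.3 and 58.2 kb away. These are peaks with no other listed peak within 50 kb. The highest of 2R, at 20655357 to 20656075, reached 1235, and another 2R peak at 20680719 to 20681525 reached 973; 5 other peaks lay within 50 kb of each. Their flanks averaged below 0, at -30.3 and -44.3, and their lowest such samples were -148 and -176. The highest of X, at 2211350 to 2212012, reached 1232, with 10 other peaks within 50 kb. Its right flank averaged 13.0, and its left flank was at 0 throughout, a stretch where neither ChIP nor input tags left density. Counting SDs of these 5 were at least 26.2 to 33.1.

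**Figure D1:**
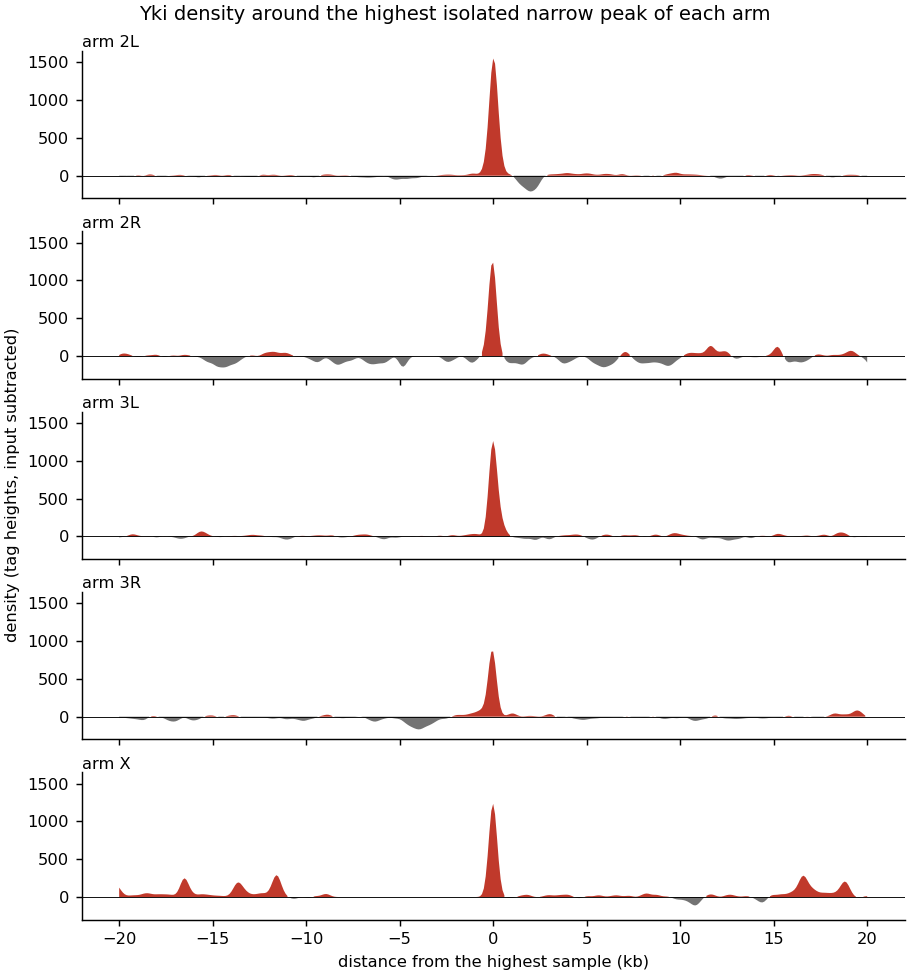
Density (tag heights, input subtracted) against distance in kb from the highest sample, around the highest isolated narrow peak of each arm; red is above 0 and grey below. Each panel has 1 spike at 0 kb, from 862 on 3R to 1549 on 2L. Listed neighbours also fall within the 2R, 3R and X panels, the nearest at 11.8, 19.5 and 11.6 kb between midpoints.

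The remaining members among the 10 highest were on 2R, 2L and 3L. On 2R, peaks at 3136188 to 3136855 and at 18157947 to 18158583 reached 1027 and 893. On 2L, the peak at 2130099 to 2130953 reached 943. On 3L, peaks at 1586295 to 1587053 and at 20723168 to 20723973 reached 938 and 932. The highest isolated peak of 3R, at 7178613 to 7179278, was lower, at 862, with a flank mean of -47.5. The 10 highest were between 637 and 985 bp wide. Between them, the nearest neighbour ranged from 10.1 to 98.3 kb, so the highest members were found both at the limit of the rule and far from it.

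In height, isolated narrow peaks differed little from other narrow peaks. Their median height was 130.2 (95% exact binomial interval of the median 125 to 137, over 900 peaks that are not replicates), and that of the other narrow peaks was 120.0 (117 to 123, over 2514). The medians differed by 10.2, and the middle ranges of the groups overlapped over most of their length. Quartiles were 100.6 and 202 for isolated peaks and 92.9 and 178 for the others. The 95th percentiles were 458 and 424. At the low end, 219 of the isolated peaks (24.3%) stayed under 100, against 32.5% of the other narrow peaks and 26.3% of all 3938 peaks on the 6 arms. A height of 300 or more was reached by 114 isolated peaks (12.7%), against 10.1% of the other narrow peaks and 17.3% of all peaks on the arms, which include those of 1000 bp or more. Above 1000 there were 5 isolated and 11 other narrow peaks, and the highest narrow peak of all, at 3173, was not isolated.

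Width separated the groups as little as height. The median width was 408 bp for isolated peaks and 398 bp for the others, with quartiles of 301 and 585 bp against 284 and 593 bp. Taller members were wider: Spearman's rho between height and width was 0.75 over the 900 isolated peaks and 0.73 over the 2514 others. Each is a description over peaks of 1 smoothed track, in which a wider interval also holds more samples to take a maximum from. Isolated peaks of 200 to 300 bp had a median height of 91.6 and those of 800 to 1000 bp one of 250.7; for other narrow peaks these medians were 87.2 and 250.1.

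Flank density differed between the groups, in large part by construction. The mean density 2 to 5 kb from the edges had a median of -0.30 for isolated peaks (95% exact binomial interval -1.69 to 1.20) and of 25.1 for other narrow peaks (23.5 to 26.7). For isolated peaks the quartiles of flank density were -14.0 and 9.80, and for the others 5.45 and 52.7. Flanks averaged below 0 for 456 isolated peaks (50.7%), against 18.9% of the other narrow peaks and 26.3% of all peaks on the arms. Much of this follows from the rule, which keeps listed neighbours out of the flanks of isolated peaks. When samples inside listed peaks or within 1 kb of them were left out, the median flank of the other narrow peaks was 7.37 (2428 peaks with samples left), so the difference came to -7.67 in place of -25.4. By arm this difference ran from -3.79 on 2R to -9.66 on 2L. Density of listed neighbours more than 1 kb from their edges stays in the flanks of other narrow peaks. Around isolated peaks the median density 2 kb from the highest sample was still 7.60 and 5.20. The difference left can therefore also be built in by the rule, and how much of it is was not tested.

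**Figure D2:**
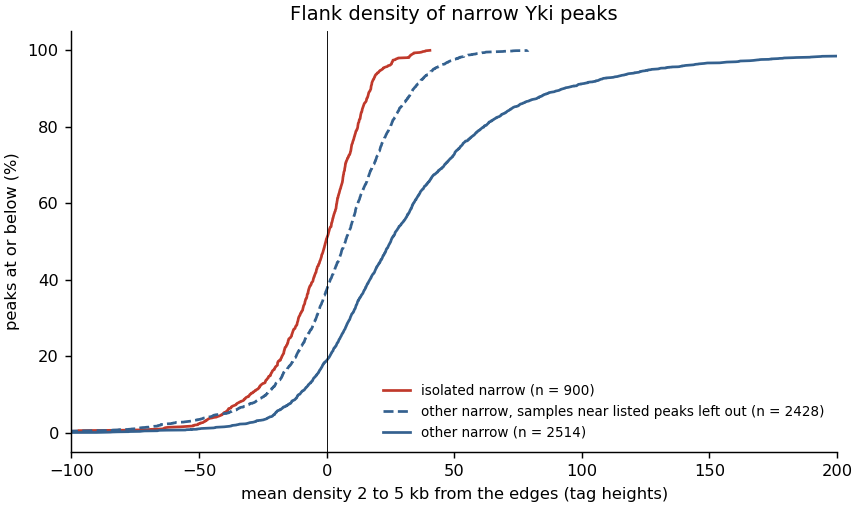
Share of peaks (%) at or below each flank density, the mean 2 to 5 kb from the edges in tag heights, for isolated narrow peaks (red), other narrow peaks (blue) and other narrow peaks without samples inside or within 1 kb of listed peaks (dashed); the axis is cut at -100 and 200. The red curve passes 50% at -0.30, the solid blue curve at 25.1 and the dashed curve at 7.37.

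All 900 isolated peaks had a mean density inside above that of their flanks, against 91.2% of the other narrow peaks and 94.1% of all peaks on the arms. These shares use flanks that can hold listed neighbours for the other narrow peaks and not for the isolated ones. With samples inside listed peaks or within 1 kb of them left out of the flanks, 2425 of the 2428 other narrow peaks with samples left were above their flanks (99.9%), so the 2 groups hardly differed in this. The median of this peak minus flank difference was 122 for isolated peaks and 87.9 for other narrow peaks. With those samples left out it was 122 and 108, with neighbour density beyond 1 kb still in the flanks of other narrow peaks. The smallest differences among the members were 26.1 on 3R at 17769711 to 17769976, and 26.6 and 27.9 on 2L at 22179541 to 22179765 and at 3418996 to 3419288. All 3 have flanks above 19 (19.2, 19.3 and 34.1) and heights of 46.2 to 63.8, so low density inside and raised density outside met in them.

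Median density around isolated peaks was small from 2 kb outward and near 0 at 5 kb. The median over 897 isolated peaks with track on both sides was 16.7 and 15.7 at 1 kb to the left and right of the highest sample, and 7.60 and 5.20 at 2 kb. At 5 kb it was 0.058 and 1.13. Around the 2514 other narrow peaks the medians were 39.2 and 39.3 at 1 kb, 28.6 and 27.5 at 2 kb, and still 19.4 and 19.4 at 5 kb. The 2 median profiles thus crossed between centre and edge: isolated peaks were higher at the centre by 10.3 and lower at 1 kb by more than that, with differences of -22.4 and -23.6. These profiles keep the density of listed neighbours. Other narrow peaks had their nearest neighbour at a median of 1534 bp between midpoints, so their higher density away from the centre is in part built in by the rule.

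**Figure D3:**
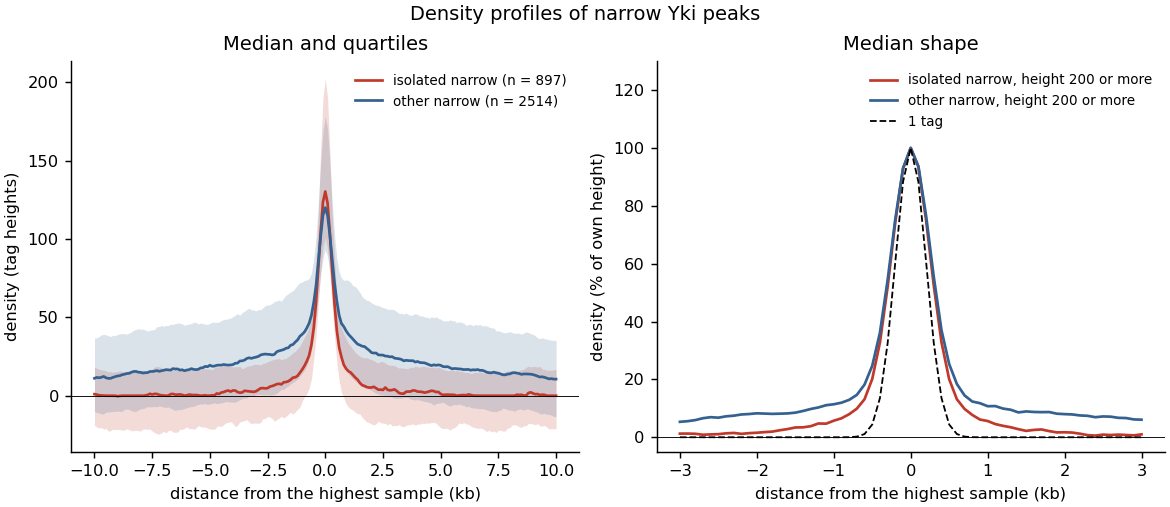
Left, median density (lines) and quartiles (bands) in tag heights against distance in kb from the highest sample, for isolated narrow peaks (red) and other narrow peaks (blue). Right, median density as % of each peak's own height for peaks of 200 or more, with the shape of 1 tag (dashed). At 1 kb the isolated peaks are at 5.72% and 5.61% and the others at 11.4% and 10.7%. Density of listed neighbours is kept, which by the rule raises the blue curves away from the centre.

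Tall isolated peaks were only a little wider than 1 smoothed tag. A single tag spans 471 bp at 0.5 of its height. Isolated peaks of 500 or more had a median of 569 bp at 0.5 of their height, those of 300 to 500 one of 598 bp, those of 200 to 300 one of 646 bp, and those under 100 one of 806 bp. Width at this level therefore fell with height, while the listed width rose with it. Over all isolated peaks the median was 699 bp, and 208 (23.1%) were more than 2 tags wide. For other narrow peaks the median was 1054 bp, and 54.9% were wider than 2 tags. This width runs outward until density falls to 0.5 of the height, so it can pass through listed neighbours. For other narrow peaks its 95th percentile was 5910 bp, though their listed widths are under 1000 bp. The rule keeps such neighbours away from isolated peaks, so this contrast is in part built in. The groups were closest at large heights: from 500 up, medians were 569 bp for isolated and 578 bp for other narrow peaks, and under 100 they were 806 and 2001 bp. Measured from the flank mean in place of 0, the medians over all heights were 710.0 bp for isolated peaks and 718 bp for the 2320 of 2514 other narrow peaks that had a value. The narrowest member, on 2L at 13833120 to 13833326, spanned 386 bp with a height of 83.5. Its left flank averaged -75.9, and density within 1 kb of its highest sample summed to -122 tags net of input. In all, 17 members were narrower than 1 tag. Other narrow peaks reached down to 379 bp, and how many were narrower than 1 tag was not counted.

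The highest sample lay within 100 bp of the midpoint in 783 isolated peaks (87.0%), against 2071 other narrow peaks (82.4%). Over all 3938 peaks on the 6 arms, which include those of 1000 bp or more, it did so in 2978 (75.6%). The offset cannot exceed 0.5 of the listed width, so in the narrowest peaks it is small by construction. Samples lie 100 bp apart, so this tolerance is 1 step of the track to either side. The left flank was the higher one in 448 of the 899 with samples on both sides. Within 1 kb of the highest sample, density summed to a median of 236 tags net of input (quartiles 159.7 and 339.9), against 311 for other narrow peaks, whose window also takes in neighbours. The highest member, on 2L, held 1971 net tags and that of X held 1382.

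A peak isolated in the list was in few cases matched in height by unlisted density near it. Samples 1 kb to 10 kb from its edges were searched, with listed peaks and 1 kb around them left out. Density high enough to be listed was thereby left out, so a low count is in part built in. The samples searched reached the height of the member in 44 of 900 cases (4.89%), against 8.59% of other narrow peaks and 6.6% of all peaks on the arms. The members concerned were low: their heights ran from 46.2 to 135, with a median of 74.7. An example is the 2L peak at 17472782 to 17473297, with a height of 135.3 beside unlisted density of 141. Over all members the highest unlisted density within 10 kb had a median of 55.9 and a 95th percentile of 101, and it did not go with the height of the member (Spearman's rho 0.019 over 900 peaks of 1 track). It came to at least 0.5 of the height for 324 members (36.0%), against 51.7% of other narrow peaks and 42.1% of all peaks on the arms.

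Density below 0 reached the size of the member in more cases. The 2 counts are not on a like basis, because the search leaves out listed high density and no list takes out troughs. Within the same distance density fell at least as far below 0 as the member stood above 0 in 220 of 900 cases (24.4%). The share was 24.9% for other narrow peaks and 21.8% for all peaks on the arms. Such members had a median height of 102 and reached up to 225. On X the share was 11.5% (15 of 130), and on the autosome arms it ran from 25.1% on 2L to 27.9% on 2R. By arm these cases were counted for isolated peaks only, so the lower share on X cannot be read as particular to them. Both an unlisted maximum as high and a trough as deep were found beside 24 members, and neither beside 660. The input has no track of its own, so more input tags and fewer ChIP tags cannot be told apart in these troughs.

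**Figure D4:**
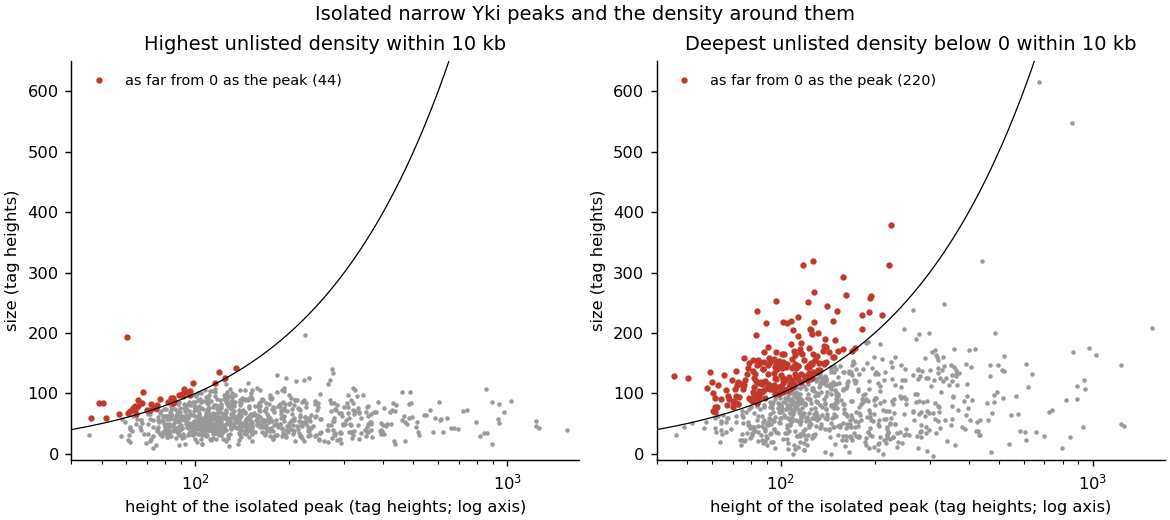
For each of the 900 isolated narrow peaks, height (tag heights, log axis) against the highest (left) and the deepest (right) unlisted density 1 to 10 kb from its edges; the curve marks equal size, and red points lie on or beyond it. Red points number 44 on the left and 220 on the right, the highest of them at a height of 225.

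The member with the lowest flanks stood between 2 troughs. This X peak at 19760309 to 19760908, singled out after its values were seen, reached 857, and its left and right flanks averaged -381 and -339. Density near it fell to -547. Next came a 3R peak at 25516792 to 25517233 with a height of 673, whose left flank averaged 2.78 and whose right flank averaged -268. A trough at one side or both can raise the peak minus flank difference: for the X peak it was 1063, the largest of all members, above the 993 of the 2L peak whose height is 1549.

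By arm, isolated peaks made up a larger share of the narrow peaks on X than on the autosomes. X had 130 isolated among 344 narrow peaks (37.8%). The autosome arms ran from 175 of 779 on 2L (22.5%) to 204 of 684 on 2R (29.8%), with 185 of 754 on 3L (24.5%) and 206 of 850 on 3R (24.2%). Chromosome 4 had none among its 3. Per Mb of track there were 5.80 isolated peaks on X and 7.98 on the 4 large autosome arms, a ratio of 0.73. Other narrow peaks numbered 9.55 and 23.8 per Mb, a ratio of 0.40. The shortfall of X was therefore smaller among isolated than among other narrow peaks. Fewer peaks per Mb in itself leaves more of them without a near neighbour, and the part of this in the share on X was not tested.

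Heights of isolated peaks on X stood out more against the background than in absolute size. The median was 148 on X, and from 126 on 2R to 131 on 3L on the autosome arms. The spread of unlisted density within 50 kb, as a median absolute deviation, was 11.7 around isolated peaks of X and 16.2 around those of the 4 autosome arms. In units of that spread, isolated peaks had a median height of 12.5 on X and 7.96 on the autosome arms. For other narrow peaks these medians were 12.1 and 6.71. Within each arm the isolated peaks had the higher median height, by 17.7 on 2L, 10.6 on 3R, 7.04 on 3L, 4.44 on 2R and 2.57 on X. Quartiles did not all follow. The upper quartile on 2R was 179 for isolated and 188 for other narrow peaks, and the lower quartile on X was 107 and 112. The other quartiles by arm were higher for isolated peaks.

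**Figure D5:**
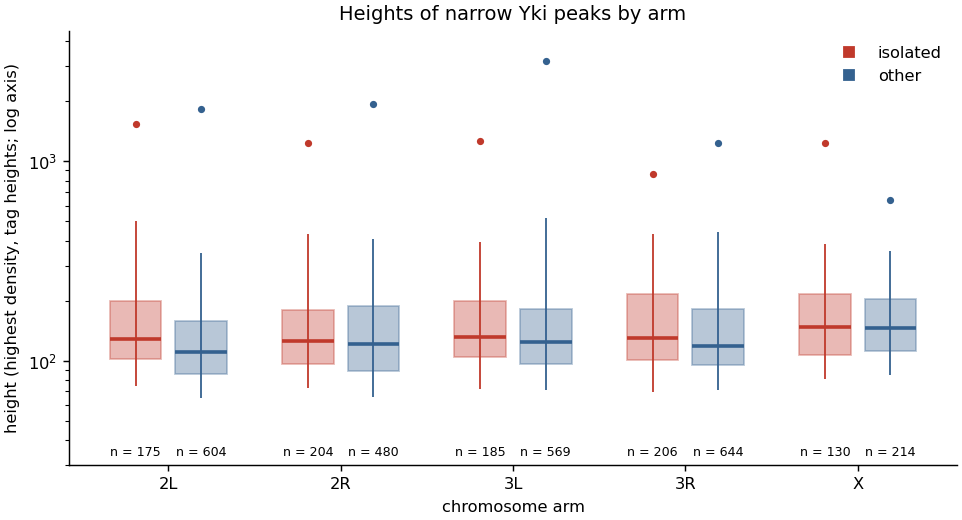
Height (tag heights, log axis) of isolated (red) and other (blue) narrow peaks by arm; boxes span the quartiles, the bar is the median, lines run from the 5th to the 95th percentile and the point is the highest peak. Boxes overlap on every arm, and the medians differ most on 2L, 127.6 for isolated and 109.9 for other narrow peaks.

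Numbers of isolated peaks per 1 Mb varied over a smaller range than those of other narrow peaks, around a lower mean. In windows of 1 Mb of the 4 autosome arms they numbered 8.03 ± 3.21 (SD, 95 windows), between 1 and 19. Other narrow peaks numbered 24.0 ± 14.2 in the same windows, between 0 and 69. On X the numbers were 5.86 ± 3.18 for isolated and 9.73 ± 8.04 for other narrow peaks (SD, 22 windows). Every one of these windows held at least 1 isolated peak. The most, 19, lay between 10 and 11 Mb of 2R, followed by 18 between 20 and 21 Mb of the same arm. Since the rule limits how many members fit in a window and grouped peaks have no such limit, the smaller spread is partly built in. The SDs also belong to unlike means, so they do not rank the 2 groups by evenness.

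Height and flanks of the members changed little with distance to the nearest neighbour. The nearest neighbour was 10 to 15 kb away for 265 members, 15 to 25 kb for 219, 25 to 50 kb for 271, 50 to 100 kb for 107, and 100 kb or more for 38. Median heights in this order were 127, 133, 130.1, 144 and 129. Median flank densities were -0.38, -3.99, 0.24, 3.01 and 1.63. There was no steady rise or fall in either, and Spearman's rho between height and distance was 0.0089 over the 900. For 145 members (16.1%), of which 31 were on X, no other listed peak lay within 50 kb, and their median height was 143.

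The 5 members farthest from any neighbour lay mostly toward the ends of arms. The first listed peak of 2R, at 273562 to 273877, reached 244 and was 570.6 kb from the next, at 844125 to 844455, which reached 67.4. The last of X, at 22256990 to 22257388, reached 198 at 364 kb from its neighbour. On 3L the last peak, at 23689404 to 23689605, was 357.5 kb away with a height of 80.8. A 3R peak inside the arm, at 23750746 to 23751518, reached 319 with neighbours 289 and 399.6 kb away. In all, 10 members were the first or last listed peak of their arm and were judged by 1 neighbour.

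The nearest listed peak was itself an isolated narrow peak for 474 of 900 (52.7%), another narrow peak for 340 (37.8%) and a peak of 1000 bp or more for 86 (9.56%). The rule favours the first count, because the nearest peak to a member already has 10 kb clear on the side that faces it, and nothing is read from this count or from runs of isolated peaks. The median height of these nearest peaks was 130.4, 127 and 414. Consecutive isolated peaks formed 426 runs, of which 115 had 3 members or more. The longest run, of 11 on 2L from 10260932 to 11045625, spanned 785 kb with heights of 88.4 to 358. Runs of 9 lay on X from 5859559 to 6698924 and from 18206580 to 19192999.

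Some members stood beside stretches without density. Within 10 kb of the edges, 20% or more of the samples were at 0 (within 0.001) for 34 isolated (3.78%) and 57 other narrow peaks (2.27%). Such stretches hold no density from which a neighbour could be measured. The most empty surroundings were those of a 2R peak at 15614482 to 15614829, with 57.8% of samples at 0 and a height of 114.

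The lowest members were small beside their surroundings. Heights of 45.4 on 2R (10072700 to 10072934), 46.2 on 2L (22179541 to 22179765), 48.9 on 3R (17769711 to 17769976), 50.4 on X (1996258 to 1996548) and 51.8 on 3L (498190 to 498416) were the lowest. Their counting SDs were at least 5.67 to 6.05. Unlisted density within 10 kb was higher than the member for 4 of these 5, at 59.7 on both 2L and 3L, 83.2 on 3R and 84.4 on X. In units of the local spread they stood at 2.11 to 4.34, against a median of 8.45 over all members.

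The peaks nearest to each limit of the rule were of low to moderate height, but they do not stand for all members near a limit. The 2R member of height 973 had a neighbour at 10.1 kb, and the 2L member of height 1549 was 985 bp wide. Just inside 10 kb, 2 peaks of 2R at 14328243 to 14328802 and 14338427 to 14338634 were 10.008 kb apart, with heights of 128 and 91.0. Just outside, 2 peaks of 2L at 14995591 to 14995797 and 15005484 to 15005805 were 9.95 kb apart, with heights of 68.6 and 77.9. Just under 1000 bp, isolated peaks of 999 bp on 3R (10972517 to 10973515) and 994 bp on 3L (13957560 to 13958553) reached 173 and 178. Just above, isolated peaks of 1002 bp on 2R (14498568 to 14499569) and 1011 bp on X (7824315 to 7825325) reached 307 and 286.

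Wide peaks that met the distance rule were higher than the narrow ones. Of 524 peaks of 1000 bp or more on the arms, 89 (17.0%) met the same distance rule, against 26.4% of narrow peaks. Isolated peaks of 1000 bp or more had a median height of 398 (quartiles 243 and 580.1), against 130.2 for isolated narrow peaks. Both had flanks near 0, with medians of 0.93 and -0.30. At 0.5 of their height the wide ones spanned a median of 982 bp and the narrow ones 699 bp.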

How the data were processed

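Yki ChIP (2 libraries) and input (1 library) from S2 cells were taken from the sample titles. Per the labels' protocols, DNA was tagmented with a Nextera kit and read on a HiSeq2000. Tools named in the submitters' processing notes are BWA, Bowtie and CASAVA 1.7.0, and the build is dm3; for the peak caller and its threshold, nothing is given in the sources. The authors deposited an interval list, whose start and end are its only other values, and a density score, 1 value for each 100 bp, smoothed and background-subtracted per the file headers. The header joins 2 library codes and 1 input code, which match no label and were taken as the 3 libraries. The smoothing keeps neighbouring values from being independent, and subtraction lets values fall below 0.

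Starts were raised by 1 to be 1-based. Heights, flank means, widths at 0.5 of the height and unlisted extremes were computed with Python 3.11.15, numpy 2.4.6, pandas 2.3.3 and scipy 1.17.1, and tested on simulated data; plots used matplotlib 3.10.9. A sample belongs to a peak if its centre lies inside. Tag size came from bumps of 3 to 17 samples between values at 0 (within 0.001), those with sums within 2% of the most frequent one, by a parabola through the logs of the 3 highest samples. Intervals of medians are exact binomial ones over peaks and cover no spread between libraries; amplified reads carry no molecular identifiers and may repeat 1 molecule. The members, groups and measures were chosen with earlier results of these data known. Named peaks are the 10 highest members, the highest of each arm, the 5 most distant, the 5 lowest, the 3 with the smallest peak minus flank difference and 2 on each side of each limit; others are said to be singled out or are examples. Alternatives changed distance, width, joining, height, flanks and arms. Transcription start sites and motifs were not analysed here.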

Additional observations from a re-analysis of the deposited data

How the results depend on the processing

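The number of isolated narrow peaks fell to 508 with a distance of 20 kb and ran from 679 to 1312 under the other 7 settings, the highest with 5 kb. The height difference of isolated minus other narrow peaks stayed positive under all 8 alternatives (2.57 on X alone to 10.7), within the range that the exact binomial intervals of the medians allow. The flank difference stayed negative under all 10: it was -30.6 with 5 kb, -18.3 with 20 kb, -20.7 with flanks 5 to 10 kb away, -7.67 without samples near listed peaks and -18.9 with medians of flank samples. The difference of peak minus flank stayed positive: it was 28.2 with 20 kb, 24.2 on X alone, 13.9 without samples near listed peaks and 26.8 with medians of flank samples. Requiring only 0.5 of the height raised the members with unlisted density nearby to 324. Leaving out samples near listed peaks removes density of neighbours out to 1 kb by construction, and neighbour density beyond that stays. A longer distance can only lower the number of members. Beyond these points, the cause was not tested. No paired analysis was possible because neither ChIP library has values of its own, and for the same reason no library was left out in turn. Alternatives on start sites and motifs were not run. Without the depth of the libraries, no lower limit of detectable binding can be stated.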

Other observations

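Outside the 6 arms, on scaffolds of heterochromatin, unplaced sequence and the mitochondrial genome, 18 of 47 narrow peaks lay 10 kb or more from any neighbour or were alone on their sequence. They belong to no comparison above.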
